A study of Mus musculus with 36 samples.

Results

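The genes of the cytosolic ribosome were followed through 10 lines of transformed mouse astrocytes. Members were the protein-coding genes whose symbol begins with Rpl or Rps and a number, together with Rplp0, Rplp1, Rplp2 and Rpsa, without the Rps6k kinases. They numbered 92 of 46078 genes in the count table. Of these, 77 encode the standard proteins of the ribosome, 46 of the large and 31 of the small subunit. A further 7 are paralogues (Rpl3l, Rpl7l1, Rpl10l, Rpl22l1, Rpl36al, Rpl39l and Rps27l), and 7 are copies such as Rpl9-ps6 and Rps27rt that the annotation lists as protein-coding. The remaining member, Rps19bp1, encodes a protein that binds Rps19 and is not a ribosomal protein. Fau and Rack1, which also encode ribosomal proteins, lie outside the symbol rule and are given separately.

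All libraries came from astrocytes of genotype Nf1-/- DNp53, that is, cells without the Ras regulator neurofibromin that carry a dominant-negative p53, and lines with a normal genotype were not analysed here. Cells were grown in medium with 10% serum, and polyadenylated RNA was counted by BRB-seq, which barcodes the RNA of each sample at the 3′ end and sequences the pool. The 36 libraries fall into a female and a male line from each of 5 lots, numbered 6, 7, 8, 11 and 12, which the design text describes as separate litters. Each line had 3 libraries in lots 6 and 12 and 4 in lots 7, 8 and 11. Whether the libraries of 1 line came from different cultures is not stated, so tests within a lot measure only the spread between these libraries, and sex cannot be told apart from the single line that carries it.

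A ribosome joins a small subunit, which reads the mRNA, and a large subunit, which forms the peptide bonds, and each holds its own set of proteins around ribosomal RNA. Their genes are transcribed at high and closely matched rates, and many of their mRNAs begin with a terminal oligopyrimidine (TOP) tract, through which mTOR signalling and Larp1 control their translation. In cells without neurofibromin, Ras and mTOR signalling are known to be raised. The genome also holds many processed pseudogenes of these genes, intronless copies made from mRNA, which can take up reads of the parent gene.

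The sequence around the start site is shown first because it is the feature the members are best known to share. Promoters from RefSeq (GRCm38.p6) were matched to 66 members and gave 78 windows of 300 bases. An uninterrupted run of at least 8 pyrimidines on the sense strand, within 20 bases before to 50 bases after the annotated start, was found in 51 of 78 member windows (65.4%) and in 25.4% of all 32851 windows. The lines below give the 35 bases before the start and the 25 from the start on, with the longest pyrimidine run that falls within that interval of 20 bases before to 50 after the start in capitals.
Rps6: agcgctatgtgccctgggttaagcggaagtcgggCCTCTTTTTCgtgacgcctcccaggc
Rps12: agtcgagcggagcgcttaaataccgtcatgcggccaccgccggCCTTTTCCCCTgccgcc
Rps26: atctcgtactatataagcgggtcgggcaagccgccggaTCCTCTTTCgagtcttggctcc
Rpl15: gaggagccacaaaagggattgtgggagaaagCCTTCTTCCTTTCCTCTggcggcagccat
Rpl22l1: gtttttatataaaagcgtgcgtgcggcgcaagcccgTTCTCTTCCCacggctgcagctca
Rpl22: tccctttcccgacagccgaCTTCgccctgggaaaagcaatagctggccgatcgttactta
These windows lie at chr4:86857343-86857402 (Rps6, minus strand), chr10:23787185-23787244 (Rps12, minus), chr10:128626482-128626541 (Rps26, minus), chr14:18270962-18271021 (Rpl15, minus), chr3:28805473-28805532 (Rpl22l1, plus) and chr4:152325691-152325750 (Rpl22, plus). Rps12, Rps26, Rpl15 and Rpl22l1 are shown as examples of members with large differences in lot 6, and Rpl22 beside its paralogue. Rps24 and Rps15, at -1.33 and -1.29 in lot 6, are not shown. The longest run of Rps15, of 11 bases, began 25 bases from the start, beyond the bases printed. The windows of Rps24 had longest runs of 12 and 7 bases, which began 38 and 11 bases from the start. Whether a run goes with the size of a difference was not tested. The run was 17 bases long in Rpl15, 11 in Rps12, 10 in Rps6 and Rpl22l1 and 9 in Rps26. The line of Rpl22 opens with a longer run than the 4 capitals, but that run lies before the interval and was not counted. Of the motifs searched on both strands of the 300 bases, the Ets-type letters CCGGAAG were in 34.6% of member windows and 8.86% of all windows. The YY1-type letters AAGATGGC were in 10.3% and 2.75%, GGGCGG in 60.3% and 35.7%, the E-box CACGTG in 10.3% and 7.15%, and TATAAA in 8.97% and 13.6%. Alternative starts of 1 gene share sequence, and a match describes the letters only.

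Levels are CPM, counts relative to library size after TMM scaling, given as mean ± SD over the libraries of a line, and they are not divided by length, so levels of different genes are not compared. Library totals ranged from 4358098 to 7562901 counts, and 3 counts, taken as the detection floor, corresponded to 0.397 to 0.688 CPM. Of the 92 members, 85 passed the expression filter for the tests within lots. Rpl10l and Rpl36-ps4 had no count in any library, which allows up to 3 counts in each. Rpl3l had 4 counts in all 36 libraries together, Rpl9-ps1 6 and Rpl39l 7. These are paralogues best known from heart and skeletal muscle (Rpl3l) and testis (Rpl10l, Rpl39l), and their partners Rpl3, Rpl10 and Rpl39 averaged 1487 to 3039, 2779 to 4544 and 1102 to 1653 CPM over the lines. Rps12-ps3 and Rpl24 were also left out, the latter with 166 counts in all.

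Ribosomal protein genes made up 18.7 ± 1.16% of the counts in the lot 6 female line (SD, n = 3) and 26.0 ± 2.16% in the lot 6 male line (SD, n = 3). The 3 female libraries of lot 6 had shares of 19.9, 17.6 and 18.5%, and the 3 male libraries 27.2, 27.3 and 23.5%, so the groups did not overlap. In lot 7 the shares were 21.9 ± 0.491% and 24.2 ± 0.822%, and in lot 8 they were 23.8 ± 1.20% and 26.7 ± 0.339% (SD, n = 4 each). Both lines of lot 11 stood at 26.0%, with SDs of 0.484 and 0.768 (n = 4 each). The lot 12 shares were 20.9 ± 1.71% (female) and 21.9 ± 1.81% (male; SD, n = 3 each), and replicate 3 was the lowest library in both lines, at 18.9 and 20.1%. The female line had the lower share in 4 of 5 lots, with a mean difference of -2.70 ± 2.79 percentage points (SD over lots, n = 5) and -1.55 without lot 6. In bulk samples a lower share of such RNA in every cell and a change in the mix of cells cannot be told apart.

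**Figure D1:**
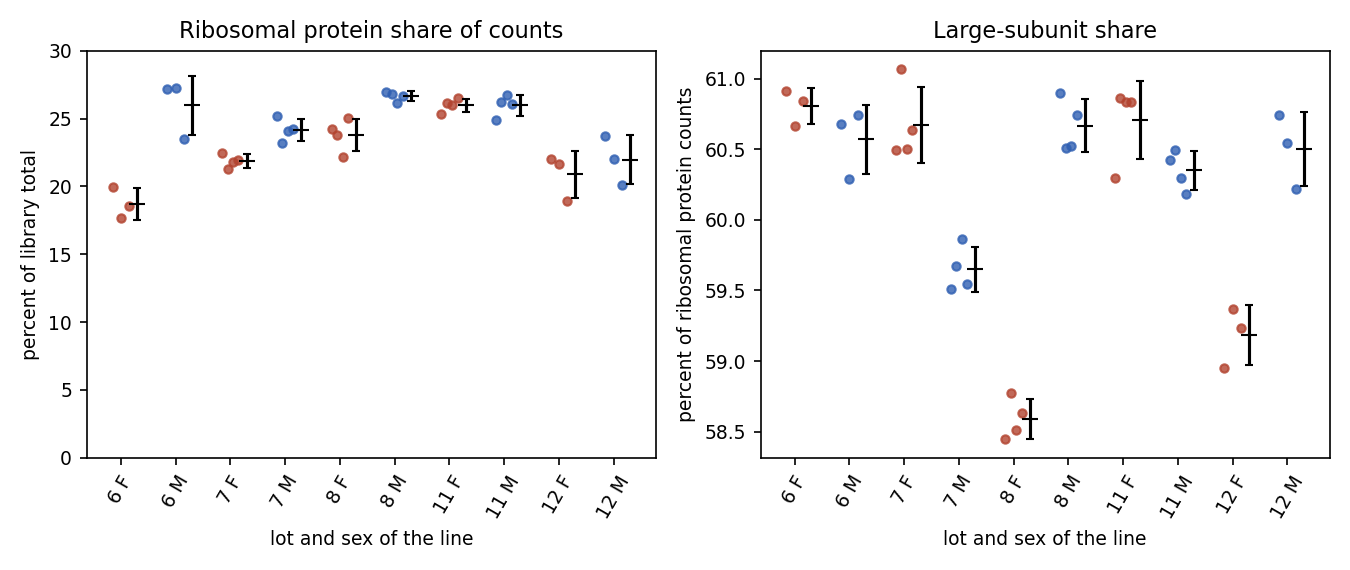
The left panel plots the ribosomal protein share of each library as percent of its total, and the right panel the large-subunit share as percent of ribosomal protein counts, by lot and sex of the line (red female, blue male). Points are libraries, and black marks give the mean and SD over libraries. The lot 6 female line sits lowest on the left, and the lot 8 female, lot 12 female and lot 7 male lines sit below the others on the right.

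The members moved together from line to line. Among the 85 members whose log2 CPM averaged 4 or more, the 10 line means of a member correlated with the median of the other members at a median Pearson r of 0.88, over 0.8 for 63 members and over 0.6 for 80 (a description over 10 lines that share library scaling). The lot 6 female line held the lowest level of 57 of the 85 members, and the lot 8 male line the highest of 48. Centred on each member's own mean, the median member stood at -0.38 on the log2 scale in the lot 6 female line and at 0.29 in the lot 8 male line. The 2 lines of lot 12 stood at -0.25 and -0.15. By edgeR's quasi-likelihood test, all 85 tested members differed among the 10 lines at an adjusted p under 0.05, where 51.8% of all 12173 genes tested did. The members that followed the others least were Rps19bp1 (r of 0.04), Rps3a1 (0.33) and Rps15a (0.39).

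Rpl37a, Rps16 and Rpl39 varied least over the lines, with SDs of log2 line means of 0.13, 0.13 and 0.17. Line means of Rps16, a small-subunit protein next to the decoding centre, ran from 2893 CPM (lot 12 male) to 3764 CPM (lot 6 male). Rps3a1, Rpl34 and Rpl22l1 varied most, with SDs of 1.93, 0.64 and 0.61. Rps3a1 is treated below with its copies.

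Female and male lines were first compared over all lots, with the lot as the independent unit. None of the 87 members tested was called by edgeR's quasi-likelihood test on summed line counts, and none of 12010 genes was (0%), with 15 members at an unadjusted p under 0.05. All 87 members (83 with library totals in place of TMM) had a log2 fold change (female minus male) below 0, from -0.62 to -0.01 with a median of -0.22, where the median of all genes was 0.01. The median was -0.11 without lot 6. Rpl34 had the smallest p, with 1358 ± 556 CPM over female lines, 1971 ± 660 CPM over male lines (SD, n = 5) and a log2 fold change of -0.58 ± 0.14 (SE, edgeR adjusted p = 0.695). Rpl41, Rps15, Rpl30 and Rps12 followed, at -0.50, -0.54, -0.39 and -0.56 with the same adjusted p of 0.695. DESeq2 called 1 member, Rpl34 (56 of all genes), and limma voom, which treated lines as random blocks of libraries, called 28 (491 of all genes). By direction alone, 29 members were lower in every female line, 37 in those of 4 lots, 17 in those of 3 and 2 in those of 2 (11, 27, 33 and 10, with 4 in 1 lot, by library totals). The lots share no samples, but the members share library scaling and moved together, so they are not separate observations. These counts are a description, with no share over all genes beside them.

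The lots differed in this respect. By edgeR's test of whether the female minus male difference was alike in all lots, 77 of 85 members were called, where 29.9% of all genes were. Rpl11, Rpl36al, Rpl37a, Rps2, Rps3, Rps16, Rps19bp1 and Rps29 were not called.

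**Figure D2:**
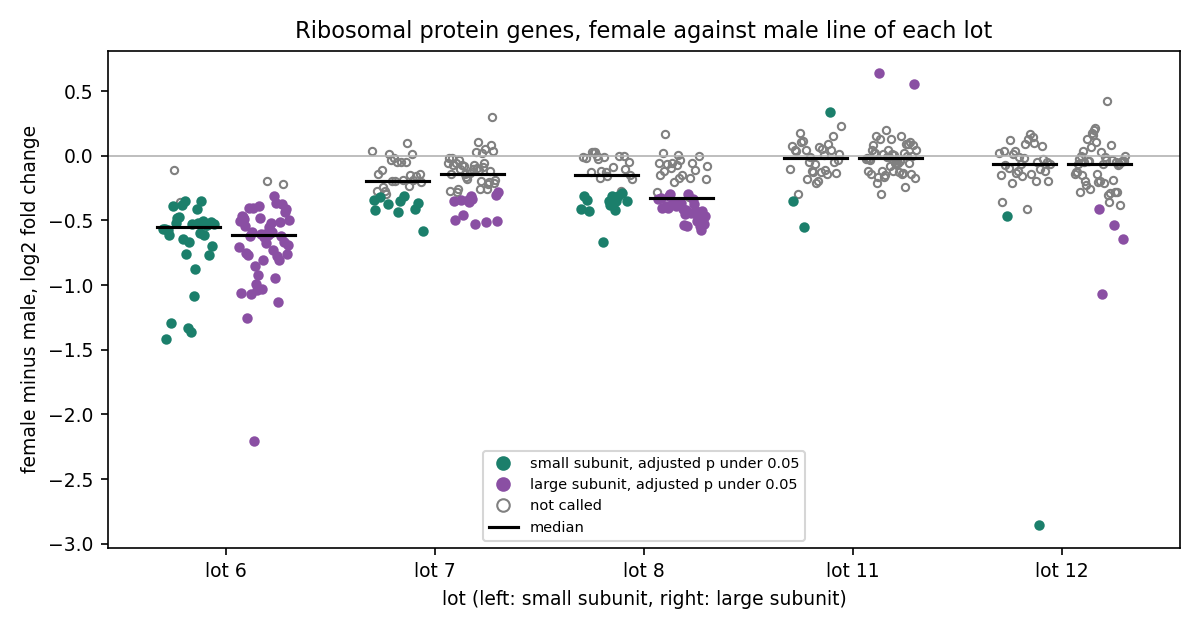
Female minus male log2 fold change of each tested member (vertical axis) in each lot, with small-subunit members on the left and large-subunit members on the right of each lot. Filled points passed an adjusted p of 0.05 in edgeR's test, open grey points did not, and black bars are medians. Lot 6 lies lowest, and single members stand apart in lots 6, 11 and 12.

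In lot 6, ribosomal protein genes of both subunits were lower in the female line. By edgeR's quasi-likelihood test 81 of 85 members fell and none rose, where 14% of all genes tested fell and 13.5% rose (27.6% in all). The median log2 fold change was -0.59, against 0.06 for all genes. Of the core proteins, 30 of 31 in the small subunit fell (median -0.56) and 44 of 45 in the large subunit (median -0.62). Rpl35, Rpl7l1, Rps16 and Rps19bp1 were not called, at -0.20, -0.22, -0.11 and -0.36, and with library totals the first 3 were at 0.03, 0.0041 and 0.11. Scaling by library totals moved the median of all genes in lot 6 by 0.22, to 0.29, and relative to that median the members stood at -0.66 with TMM and -0.65 with library totals.

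The largest fall in lot 6 was in Rpl22l1, the paralogue of the RNA-binding large-subunit protein Rpl22. Its 3 female libraries had 55.2, 45.1 and 56.5 CPM and its 3 male libraries 277, 241 and 207 CPM. The groups did not overlap, and the log2 fold change was -2.21 ± 0.16 (SE, edgeR adjusted p = 1.7e-13). Rps12, a small-subunit protein, had 2693, 2068 and 2393 CPM in the female libraries and 6759, 7085 and 5259 CPM in the male libraries. Its log2 fold change was -1.42 ± 0.12 (SE, edgeR adjusted p = 4.4e-12). Rps26, which contacts the mRNA near the exit of the small subunit and is a Diamond-Blackfan anaemia gene, had 3497 ± 431 and 9005 ± 1578 CPM (SD, n = 3 each), a log2 fold change of -1.37 ± 0.13. For both Rps12 and Rps26 every female library was below every male library.

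Other members with known roles fell by less in lot 6. Rps6, the substrate of S6 kinase, had 664 ± 56.2 CPM in the female and 960 ± 191 CPM in the male line (SD, n = 3 each), a log2 fold change of -0.53. Rpl5 and Rpl11, which with 5S RNA bind Mdm2, fell by 0.81 and 0.46 on the log2 scale. Of the other Diamond-Blackfan anaemia genes followed here, Rps24 was at -1.33, Rpl35a at -0.61 and Rps19 at -0.47. The stalk proteins Rplp0, Rplp1 and Rplp2, which recruit translation factors, were at -0.76, -0.69 and -0.50. Rpsa, known also as the laminin receptor precursor, was at -0.53. All of these were called by edgeR, with adjusted p from 2.2e-12 (Rps24) to 3.5e-04 (Rps6).

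Where a member lay in the genome went with the size of its fall in lot 6. The 4 members on chromosome 10 (Rpl41, Rps12, Rps15 and Rps26) had a median of -1.33, and the other genes there whose log2 CPM averaged 4 or more had a median of -0.64 (n = 250). The 7 members on chromosome 11 had a median of -0.99 (other genes -0.39, n = 431), and the 3 on chromosome 14, Rps24, Rpl15 and Rpl36a-ps1, a median of -1.25 (other genes -0.82, n = 153). On chromosome 2 the 4 members had a median of -0.36 and the other genes one of 0.35 (n = 427). The 14 members on chromosomes 10, 11 and 14, a grouping made after the values were seen, had a median of -1.08, and the other 71 had a median of -0.55 with 67 called. Rpl41 had 8967 ± 999 CPM in the female and 19604 ± 2738 CPM in the male line (SD, n = 3 each). Rpl15, a large-subunit protein named after its values were seen, had 488 ± 51.2 and 1165 ± 192 CPM. In lot 6, 84 of 85 members were below the median of the other genes on their own chromosome, by a median of 0.60 on the log2 scale.

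The same relation was seen in the other lots. Over 85 members, the female minus male difference of a member correlated with the median of the other genes on its chromosome at a Pearson r of 0.65, 0.60, 0.73, 0.47 and 0.20 in lots 6, 7, 8, 11 and 12, respectively. Spearman's rho was 0.66, 0.61, 0.69, 0.65 and 0.50. These values are a description, since members on 1 chromosome share the same median and come from the same libraries. What sets the chromosome medians was not tested.

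**Figure D3:**
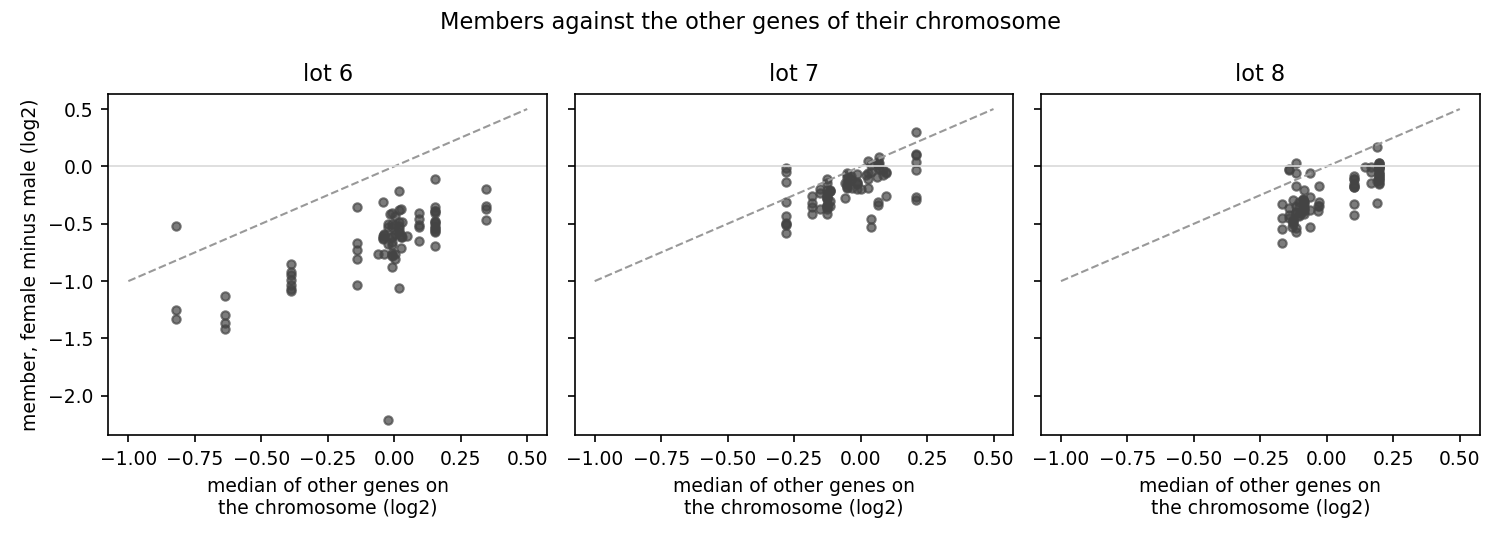
Each point is a member, with its female minus male log2 fold change on the vertical axis and the median of the other genes on its chromosome on the horizontal axis, in lots 6, 7 and 8. The dashed line marks equal values. Members follow the median of their chromosome and lie mostly below the line, as 84 of 85 do in lot 6, 78 in lot 7 and 80 in lot 8.

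In lot 7, 23 of 85 members fell and none rose, where 5.42% of all genes fell and 5.41% rose (10.8% in all), with a median of -0.19. Rpsa on chromosome 9 had 3169, 3004, 2747 and 2970 CPM in the female and 4841, 4267, 4159 and 4555 CPM in the male libraries. These groups did not overlap, and the log2 fold change was -0.58 ± 0.08 (SE, edgeR adjusted p = 1.4e-06). Rpl4, a large-subunit protein on the same chromosome, had 2026 ± 78.6 and 2890 ± 111 CPM (SD, n = 4 each), and Rpl34 had 847 ± 108 and 1223 ± 78.8 CPM. Of the core proteins, 9 of 31 in the small and 12 of 45 in the large subunit fell. The 9 members on chromosome 9 had a median of -0.43, with other genes there at -0.28, and the 7 on chromosome 17 a median of 0.04, with other genes at 0.21. Leaving out male replicate 1 gave 13 calls, and a replicate block gave 40. Of all 12173 genes, that block fit called 1684, against 1319 without the block.

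In lot 8, 42 of 85 members fell and none rose, where 4.99% of all genes fell and 6.41% rose (11.4% in all), with a median of -0.29. Rps21, a small-subunit protein on chromosome 2, had 1689, 1525, 1484 and 1517 CPM in the female and 2457, 2654, 2448 and 2326 CPM in the male libraries. These did not overlap, and the log2 fold change was -0.67 ± 0.10 (SE, edgeR adjusted p = 4.1e-06). Rpl7l1 was at -0.57 ± 0.11 (SE), with 160 ± 11.6 and 239 ± 13.2 CPM, and Rpl7a at -0.55 ± 0.11, with 1628 ± 174 and 2379 ± 149 CPM (SD, n = 4 each).

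Over all core proteins, and in the large-subunit share over all members, the subunits differed most in lot 8. Among core proteins 26 of 45 large-subunit members fell (median -0.33) and 12 of 31 small-subunit members (median -0.16). Chromosome 7 holds 9 of the small-subunit and 5 of the large-subunit core members, and none of these 14 was called in lot 8, with medians of -0.0026 and -0.06. Other genes on chromosome 7 had a median of 0.20 there (n = 321). Away from chromosome 7, 12 of 22 small-subunit members (median -0.30) and 26 of 40 large-subunit members (median -0.36) fell. The large-subunit share of ribosomal protein counts was 58.6 ± 0.144% for the lot 8 female line against 60.7 ± 0.187% for its male partner (SD, n = 4 each), a difference of -2.08 percentage points. It was 59.2 ± 0.213% and 60.5 ± 0.263% in lot 12 (SD, n = 3 each), a difference of -1.32 points, and 60.7 ± 0.270% and 59.6 ± 0.159% in lot 7, a difference of 1.02 points. The lines of lots 6 and 11 differed by 0.24 and 0.36 points. Over lots the mean difference was -0.36 ± 1.29 points (SD, n = 5), smaller than the spread between lots. This depended on the members counted. Over the 33 members with no named pseudogene, the female line had the lower large-subunit share in 4 of 5 lots, by a mean of -2.22 ± 1.60 points (SD, n = 5). The direction turned in lot 6, at 59.97 ± 0.516% (female) and 63.3 ± 0.214% (male; SD, n = 3 each), and in lot 11, at 58.4 ± 0.283% and 61.0 ± 0.954% (SD, n = 4 each). Over these 33 members the differences were -3.36, 0.50, -2.27, -2.59 and -3.38 points in lots 6, 7, 8, 11 and 12. By this share lot 8 did not differ most.

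In lots 11 and 12 few members differed in the fit without a replicate block. In lot 11, 5 of 85 members were called, where 4.33% of all genes were (1.52% higher, 2.81% lower). Rps3a1, Rplp0 and Rpl21 rose, by 0.34, 0.55 and 0.64 on the log2 scale, and Rps12 and Rps18 fell, by 0.35 and 0.55. The median of the 85 was -0.02, and 0.01 with library totals. Rpl21, a large-subunit protein, had 5016, 5085, 5190 and 4751 CPM in the female and 3065, 3347, 3214 and 3258 CPM in the male libraries, without overlap. Rps18, a small-subunit protein, had 2934 ± 29.0 CPM in the female and 4295 ± 144 CPM in the male line (SD, n = 4 each). Leaving out female replicate 1, 2 or 4 or male replicate 1 or 2 gave 3 calls.

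In lot 12, 6 of 85 members fell and none rose, where 2.06% of all genes fell and 1.74% rose (3.8% in all). These were Rps3a1 (-2.86), Rpl34 (-1.07), Rplp0 (-0.64), Rpl41, Rps15 and Rpl30. The median of the 85 was -0.06, and 0.01 with library totals. Rpl34 had 721, 768 and 576 CPM in the female and 1548, 1552 and 1237 CPM in the male libraries, again without overlap. Replicate numbers paired the libraries of the sexes in this lot, and with the replicate as a block 14 members fell. Of all 12173 genes, 367 fell and 300 rose in that fit. Leaving out female replicate 3 or male replicate 1 gave 3 calls, and leaving out male replicate 3 gave 21.

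Some of these single differences involved pseudogene copies. Sequence comparison with GENCODE M21 transcripts, at 90% identity or more over at least 100 bases, assigned 824 pseudogenes to 80 of the 92 members, and 684 of these had a count. Over all libraries the copies together took 2.20 to 3.45% of a library's counts. For 16 members, more than 20% of the counts of gene and copies fell on the copies, and for 3 more than 50%, namely Rpl24 (99.8%), Rpl23a (76.0%) and Rps3a1 (70.4%). In 45 members more than 50% of the 50-base words in the last 400 bases, where 3′ reads fall, also occurred in another gene. Rpl24 averaged 0.747 CPM and is uncertain, since 68.8% of its last 400 bases also belong to Gm28037 on the same strand and its copies took 450 CPM. Rpl23a is uncertain in the same way, with 22 copies and 77.5% of its last 400 bases antisense to Tlcd1.

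Rps3a1, a small-subunit protein (chromosome 3, 86137940 to 86142702, minus strand, GRCm38), and the processed pseudogene Rps3a3 (chromosome 13, 108670603 to 108671397, plus strand) are identical at 786 of 795 coding bases. The last 120 coding bases are shown because reads of a 3′ method fall towards this end, with the 2 differing bases in capitals.
Rps3a1: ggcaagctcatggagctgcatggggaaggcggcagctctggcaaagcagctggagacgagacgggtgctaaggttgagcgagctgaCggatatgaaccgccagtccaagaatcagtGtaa
Rps3a3: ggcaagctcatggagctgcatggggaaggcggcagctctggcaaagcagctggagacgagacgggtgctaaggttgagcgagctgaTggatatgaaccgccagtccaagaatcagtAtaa
Rps3a1 took 4.98 to 5.75% of the summed counts of gene and copies in 7 of the 10 lines, 43.5 ± 6.89% in the lot 12 male line (SD, n = 3), 75.5 ± 3.63% in the lot 11 male line and 96.5 ± 0.0630% in the lot 11 female line (SD, n = 4 each). In lot 12 the female libraries had 75.3, 83.1 and 63.3 CPM of Rps3a1 and the male libraries 518, 492 and 598 CPM, without overlap. In lot 11 the libraries had 1968, 2012, 1962 and 1992 CPM in the female and 1506, 1541, 1830 and 1407 CPM in the male line. The sum of gene and copies was 1288 ± 154 and 1239 ± 95.1 CPM in the 2 lines of lot 12, and 2056 ± 24.2 and 2076 ± 144 CPM in those of lot 11. With copies added to the gene, the difference of Rps3a1 was 0.05 in lot 12 (edgeR adjusted p = 0.895) and -0.0045 in lot 11 (edgeR adjusted p = 0.994), and neither was called.

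Rplp0, the stalk protein that anchors Rplp1 and Rplp2 (chromosome 5, 115559467 to 115563727), behaved alike with the pseudogene Gm8730 (chromosome 8, 102864845 to 102865798), identical at 942 of 954 coding bases and without a difference in the last 120. Rplp0 took 55.1 to 56.1% of the sum of gene and copies in the same 7 lines, 74.8 ± 0.469% in the lot 12 male line (SD, n = 3), and 72.5 ± 0.784% and 90.4 ± 0.386% in the lot 11 male and female lines (SD, n = 4 each). With copies added, the difference of Rplp0 was 0.24 in lot 11 (edgeR adjusted p = 0.133) and -0.21 in lot 12 (edgeR adjusted p = 0.322), and both calls ended. Why the split differs between lines was not tested.

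**Figure D4:**
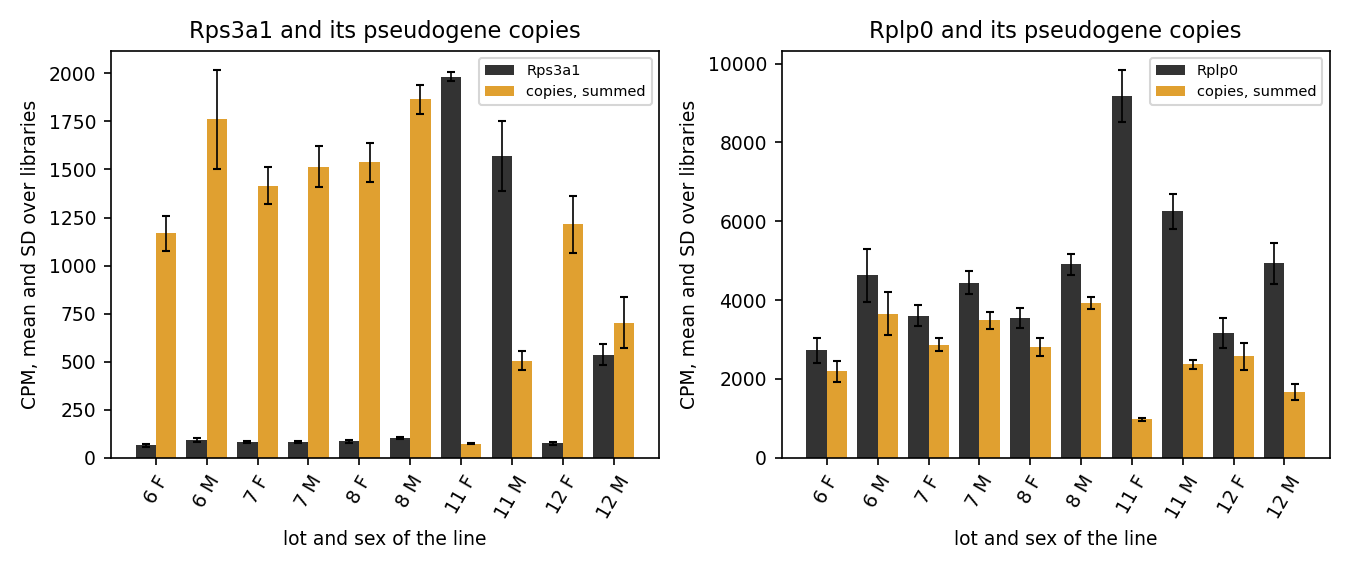
Bars give the mean CPM of Rps3a1 (left) and Rplp0 (right) in black and of their summed pseudogene copies in orange, by lot and sex of the line, with SD over libraries. Rps3a1 stands above its copies only in the lot 11 lines, and copies of Rplp0 are lowest in the lot 11 female line, at 973 CPM.

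For Rpl34 the sum of gene and copies also differed between the lines of lot 12. The gene itself was lowest in the lot 12 female (688 CPM), lot 7 female (847 CPM) and lot 7 male lines (1223 CPM), and highest in the lot 6 male line (2879 CPM). Its copies summed to 264, 305, 266 and 234 CPM in these lines, so the sum of gene and copies stayed lowest in the lot 12 female line, at 952 ± 127 CPM (SD, n = 3).

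The paralogue pairs were followed over all lines. The protein-coding sequences of Rpl22 and Rpl22l1 are identical at 254 of 366 aligned bases (69.4%). The stretch below starts at base 42 of Rpl22 and base 27 of Rpl22l1 and has its 38 differing bases in capitals. It is shown to give how far the coding sequences of the pair differ, and was not chosen by where 3′ reads fall.
Rpl22: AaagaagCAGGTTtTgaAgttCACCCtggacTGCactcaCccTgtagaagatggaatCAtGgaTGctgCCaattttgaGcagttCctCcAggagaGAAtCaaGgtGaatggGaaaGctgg
Rpl22l1: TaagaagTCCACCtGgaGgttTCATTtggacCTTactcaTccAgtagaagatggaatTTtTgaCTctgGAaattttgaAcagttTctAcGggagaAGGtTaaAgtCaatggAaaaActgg
Rpl22l1 had 52.3 CPM in the lot 6 female and 242 CPM in the lot 6 male line, and 110 to 196 CPM in the other 8 lines. Rpl22 ran only from 765 CPM in the lot 6 female to 1151 CPM in the lot 8 male line. In lot 6 Rpl22 was at -0.41 ± 0.11 (SE, edgeR adjusted p = 0.0031), a call that library totals ended (-0.18, adjusted p = 0.202). The log2 ratio of Rpl22l1 to Rpl22 counts was -3.88 ± 0.0970 in the lot 6 female line and -2.07 ± 0.183 in the lot 6 male line (SD, n = 3 each), and it lay between these in the other lines. The female minus male difference of the ratio was -1.81, -0.39, 0.04, -0.43 and -0.20 in the order of the lots. The mean was -0.56 ± 0.72 (SD, n = 5 lots). An exact sign-flip permutation test, 2-sided, gave p = 0.125, where 5 lots cannot give a p below 0.0625. The copy Gm15421 had 12.6 CPM in the lot 6 female and 61.4 CPM in the lot 6 male line. Without stated strand, 39.8% of the last 400 bases of Rpl22l1 cannot be separated from the antisense gene Gm33051.

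Rps27l, a p53-regulated paralogue of the zinc-finger protein Rps27, had 729 ± 61.9 CPM (lot 6 female) and 1341 ± 170 CPM (lot 6 male; SD, n = 3 each), a log2 fold change of -0.88 ± 0.11 (SE, edgeR adjusted p = 9.2e-08). Rps27 was at -0.53 in the same lot. The difference of the log2 ratio of Rps27l to Rps27 was -0.35, -0.28, 0.30, -0.01 and -0.26 in lots 6, 7, 8, 11 and 12, and the same exact permutation test gave p = 0.4375. In lot 7 Rps27l was called at -0.31, and Rpl22l1 at -0.46. Both calls ended with some libraries left out: without female replicate 1 or 3 or male replicate 1 or 3 for Rps27l, and without female replicate 1 or 2 or male replicate 1 for Rpl22l1.

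Of the other pairs, Rpl36al and Rpl36a were at -0.59 and -0.59 in lot 6, and both were called. Rpl7 was called at -0.62 and Rpl7l1 was not, at -0.22 (edgeR adjusted p = 0.209) and at 0.0041 with library totals. Line means of Rpl7l1 ranged from 147 CPM (lot 7 male) to 239 CPM (lot 8 male). Rps4x, on the X chromosome, ranged from 2683 to 4622 CPM.

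**Figure D5:**
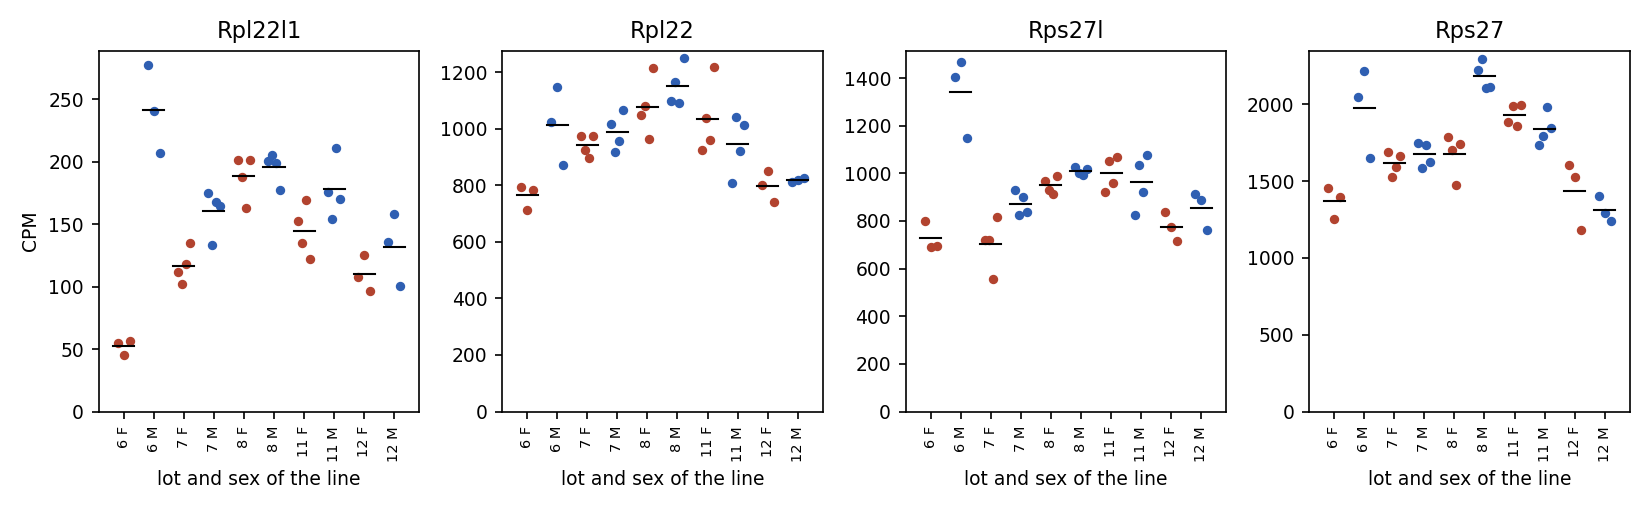
CPM of Rpl22l1, Rpl22, Rps27l and Rps27 in each library (vertical axes from 0), by lot and sex of the line (red female, blue male), with black bars for line means. Rpl22l1 spans 52.3 to 242 CPM between the 2 lines of lot 6, and Rpl22 spans 765 to 1014 CPM.

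Genes that work with the ribosome were counted beside the members, with no test of the lists themselves. Of all genes tested, 14% fell and 13.5% rose in lot 6, 5.42% and 5.41% in lot 7, and 4.99% and 6.41% in lot 8. These shares were 2.81% and 1.52% in lot 11, and 2.06% and 1.74% in lot 12. Fau and Rack1, outside the symbol rule, fell in lots 6 and 8. Rack1 had 1575 ± 161 CPM in the lot 6 female and 3115 ± 457 CPM in the male line (SD, n = 3 each). A list of 24 genes with TOP transcripts held translation factors and others, such as Npm1, Hnrnpa1, Cct2, Nap1l1 and Gas5. Of these 24, 18 fell in lot 6 (median -0.60), 8 fell and 1 rose in lot 7, and 8 fell in lot 8. None was called in lot 11, and 5 fell and 1 rose in lot 12. Tpt1 and Npm1 were at -1.61 and -1.57 in lot 6, and Npm1 is also counted in the next list. Of 40 ribosome biogenesis factors, 35 fell in lot 6 (median -0.77), 5 fell and 1 rose in lot 7 and 5 fell in lot 8. Among them the nucleolar GTPase gene Gnl3 had 65.5 ± 7.77 and 226 ± 5.98 CPM in lot 6 (SD, n = 3 each), and Nop56, a box C/D snoRNP protein, was at -0.73 in lot 8.

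Of 13 tested subunits and factors of RNA polymerase I, 5 fell in lot 6 and none was called in the other lots. Of 20 tested regulators of ribosomal protein synthesis, 5 fell and 1 rose in lot 6, close to the 27.6% called among all genes. Rheb, the GTPase that activates mTOR, rose from 82.8 ± 3.92 CPM in the male to 136 ± 10.2 CPM in the female line, and Eif4ebp1 and Eif4ebp2, translational repressors under mTOR, were at -0.47 and -1.32. In lot 8 Eif4ebp1 fell and in lot 12 Eif4ebp2 fell. Of 77 mitochondrial ribosomal proteins tested, which belong to a separate ribosome, 28 fell and 1 rose in lot 6 (median -0.26). In lot 7, 4 fell and 2 rose, where 10.8% of all genes were called, and in lot 8, 11 fell and 3 rose, where 11.4% were. Across lots none of these lists had a called gene.

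Markers of cell types were read beside these results, first relative to library totals without TMM scaling. Of 10 astrocyte markers 5 were above 1 CPM on average, led by Gja1 at 143 CPM, and Gfap, Aqp4 and S100b averaged 0.13, 0.26 and 0.25 CPM. Of 10 microglia and macrophage markers 2 were above 1 CPM, their sum ran from 2.46 to 11.3 CPM over lines, and Itgam, Adgre1 and C1qa had no count. The 10 fibroblast and pericyte markers summed to 1403 CPM in the lot 7 male line and up to 15869 CPM in the lot 6 female line, where Acta2 had 15789 CPM, while Lum had no count. With TMM scaling, in lot 6 Acta2 was at 14807 ± 1006 CPM in the female and 4847 ± 700 CPM in the male line (SD, n = 3 each), and Col1a2 at 23.8 ± 12.8 and 480 ± 20.8 CPM. By edgeR, 1 astrocyte marker rose in lot 6 (Slc1a3) and 1 fell (Gja1), with a median of 1.14 over the 6 tested, and of 8 fibroblast and pericyte markers 1 rose (Acta2) and 2 fell (Col1a1 and Col1a2). In lot 7 Gja1 fell, Acta2, Col1a1 and Pdgfrb rose and Cspg4 fell. In lot 8 the astrocyte markers Slc1a3 and Sox9 and the fibroblast and pericyte markers Col1a1 and Pdgfrb fell. None of the 2 microglia and macrophage markers tested was called in these lots. Of all genes, 27.6% were called in lot 6, 10.8% in lot 7 and 11.4% in lot 8. The part of these genes in the ribosomal protein differences was not tested.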

How the data were processed

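BRB-seq libraries of Nf1-/- DNp53 astrocytes were analysed from the deposited table of raw counts per Ensembl gene, whole numbers per the labels and the values. Tools listed in the submitters' processing notes are STAR 2.7.6a, cutadapt 2.10 and Subread 2.0.2, with the build GRCm38. Whether molecular identifiers were collapsed, the strand setting and the annotation release are not given in the sources used here, so floors cover counting error only. Of 46078 rows, 45143 matched GENCODE M21 by identifier, and the others held 0.0295% of counts. No 2 libraries were identical, and over the 48 pairs within lines chi-square divided by its degrees of freedom was 5.63 to 24.1.

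Counts were fitted with edgeR 4.0.16 (quasi-likelihood, default expression filter, TMM scaling) in R 4.3.3: line sums with lot and sex across lots, and 36 libraries with 1 coefficient per line within lots, among lines and between lots. P-values were adjusted over all genes by the Benjamini-Hochberg method at 0.05. limma 3.58.1 and DESeq2 1.42.0 gave alternatives, and fits were tested on simulated data. Log2 ratios used a prior count of 0.5, and log2 CPM a prior count of 2. Copies were found with BLAST 2.17.0, and pairs aligned with Biopython 1.88. Residuals of libraries with the same replicate number correlated between the sexes at 0.131 to 0.227 in the 3 pairs of lot 12, which were taken as pairs, at -0.026 to 0.092 in 15 pairs of the other lots, and at up to 0.047 in 48 pairs of different numbers.

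Members and gene lists were chosen with earlier results of these data known. Genes named were paralogue pairs, Rpl5, Rpl11, Rps6, Rps19, Rps24, Rps26, Rpl35a, Rplp0, Rplp1, Rplp2, Rpsa and Rps3a1, the 3 members of largest and of smallest SD over lines, the 5 of smallest p across lots, up to 3 called members of largest change in each direction per lot, and up to 3 by p of each other list. Rps4l was not among the members. Alternatives were other scalings, no filter, a replicate block, leaving out each library or lot, other denominators and prior counts, and, added after seeing the data, copies added to members.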

Additional observations from a re-analysis of the deposited data

Results flagged for a closer look

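For 30 of the 34 genes with a female minus male difference given above, edgeR's test found that it was not alike in all lots, where 29.9% of all genes were called. Many of the 34 were named for a large change within a lot, so this count is a description. Rpl11, Rpl36al, Rps16 and Rps19bp1 were not called. Rps3a1 had the smallest adjusted p (2.6e-18), followed by Rpl22l1 (6.3e-10), Rplp0 (1.4e-09), Rps24 (2.4e-09), Rpl15 (4.2e-09) and Rpl21 (1.5e-08). These values are for genes without their copies. With copies added, the calls of Rps3a1 and Rplp0 in lots 11 and 12 ended, as given above. Adjusted p in the same edgeR test was 1.0e-06 for Rps12, 2.0e-06 for Rpsa, 1.5e-05 for Rps26, 2.1e-05 for Rpl4, 3.0e-05 for Rps15, 3.6e-05 for Rpl34, 5.8e-05 for Rps27l, 1.4e-04 for Rpl41, 2.4e-04 for Rps27 and 3.3e-04 for Rpl7l1. It was 4.4e-04 for Rpl5, 7.5e-04 for Rplp1, 7.7e-04 for Rpl7, 0.0010 for Rps19, 0.0013 for Rps21, 0.0037 for Rps18, 0.0043 for Rpl35a, 0.0054 for Rpl30, 0.0068 for Rplp2, 0.0102 for Rpl36a, 0.0107 for both Rpl7a and Rpl35, 0.0390 for Rpl22 and 0.0496 for Rps6.

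Single samples far from the rest of their group were found in 18 of 304 groups checked, where chance gives about 1 in 20. Among lines of a sex, Rps3a1 stood apart in the lot 11 female line (1984 CPM), Rplp0 in the lot 11 female and male lines (9177 and 6259 CPM), Rpl30 in the lot 7 male line (1620 CPM), Rpl36al in the lot 8 female line (982 CPM), Rps6 in the lot 12 male line (623 CPM) and Rps19bp1 in the lot 6 female and male lines (217 and 278 CPM). For Rps3a1 and Rplp0 these levels leave out the copies, and the split between gene and copies differed in the lot 11 lines. Among libraries of a line, the large-subunit share was low in lot 11 female replicate 1 (60.3%), and the log2 ratio of Rpl22l1 to Rpl22 in lot 8 male replicate 4 (-2.81). The same applied to lot 7 female replicates 3 (Rpl15, 730 CPM) and 1 (Rps26, 4971 CPM), lot 8 female replicate 3 (Rpl41, 9459 CPM, and Rpl36a, 1775 CPM), lot 11 female replicate 1 (Rpl36a, 2110 CPM), lot 8 male replicate 2 (Rpl35a, 2901 CPM, and Rps6, 929 CPM) and lot 8 male replicate 4 (Rplp2, 3691 CPM).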

How the results depend on the processing

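Counts of called members kept within 1.5 times of the reported ones except as follows. Across lots 0 became 1 with DESeq2 and 28 with limma voom. With the replicate block, lot 7 gave 40 in place of 23, lot 11 gave 9 in place of 5 and lot 12 gave 14 in place of 6. Of all 12173 genes, the block called 1684 in lot 7, 668 in lot 11 and 667 in lot 12. Without it these were 1319, 527 and 463. The block gave 83 in lot 6, 45 in lot 8, 85 among lines and 83 for the difference between lots, within 1.5 times of the other counts. Replicate numbers were taken as pairs only in lot 12. Library totals gave 8 in lot 11 (5 higher, 3 lower, against 3 and 2) and 13 in lot 12 (4 higher, 9 lower, against 0 and 6). Of all 12173 genes, library totals called 530 in lot 11 and 476 in lot 12. Without the expression filter lot 12 gave 10, and with copies added to members lot 11 gave 3. With single libraries left out, calls ranged from 75 to 82 in lot 6, 13 to 23 in lot 7, 32 to 42 in lot 8, 3 to 4 in lot 11, 3 to 21 in lot 12, 84 to 85 among lines and 65 to 83 between lots. With single lots left out, calls across lots stayed at 0, the mean difference of the ribosomal protein share ranged from -3.38 to -1.55 points, that of the large-subunit share from -0.70 to 0.07 points, the Rpl22l1 ratio from -0.71 to -0.25 and the Rps27l ratio from -0.23 to -0.06. Over members with no named pseudogene, the large-subunit difference was -2.22 points, though these members are not free of copies found by sequence. Of 632 combinations of 47 gene differences with an alternative, 589 kept direction and call, 24 lost the call, 14 gained one and 5 reversed. These were Rps3a1 in lots 12 and 11 with copies added (0.048 and -0.0045) and, in lot 6 with library totals, Rpl7l1 (0.0041), Rpl35 (0.029) and Rps16 (0.115). Apart from the copies, whose counts the alternative adds by construction, the cause of these changes was not tested. Depth limits Rpl3l, Rpl10l, Rpl39l, Rpl9-ps1, Rpl36-ps4 and Rps12-ps3, which had too few counts for the tests within lots. Rpl24 also had too few, and its level is uncertain because of its overlap with Gm28037 and its copies.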
